A study of Mus musculus with 4 samples.

Results

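Notch receptors, their ligands and direct target genes were examined as 10 genes, Notch1, Notch2, Notch3, Notch4, Jag1, Jag2, Dll1, Dll4, Hes1 and Hey1, out of 54838 genes listed for each library. The genes were picked by symbol, and the set was selected on the same contrast that is described here: their levels in Acvr2a knockout and wild-type cells were known when the set was drawn up. Their levels and fold changes are therefore given as a description, with no test. Of the 10 genes, 8 passed the filter on low counts and 2, Dll4 and Hey1, did not. Dll1 passed only through its counts in the knockout cells.

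The cells are Hepa1-6, an established mouse hepatocellular carcinoma line. NC cells are wild type for Acvr2a, which encodes a type II activin receptor, and KO cells carry an Acvr2a knockout; each group has 2 libraries, and no treatment or time point is given for either. The knockout cells are described as subclones, without saying whether KO 1 and KO 2 are separate subclones, and nothing says that same-group libraries came from separate cultures. The p-values then measure only the spread between these 4 libraries, which may be technical.

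Library totals lay between 11597923 and 13910582 counts, and counts of replicate libraries correlated at 0.989 on the log2 scale across tested genes in both groups (genes are not independent replicates). Acvr2a itself had 81.0 and 108.4 counts in the NC libraries against 74.7 and 97.4 in the KO libraries; library values are given throughout with replicate 1 before replicate 2 and NC before KO. Its log2 fold change was -0.21 (SE 0.20), which did not pass edgeR's quasi-likelihood test (edgeR adjusted p = 0.433). A gene total does not show whether the coding sequence was altered, and 446 of the 5686 exonic bases of Acvr2a overlap Orc4 on the opposite strand, so this total does not check the labels. NC and KO denote the labels throughout, and every direction given here rests on them.

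Notch receptors are membrane proteins that are activated by ligands on a neighbouring cell. Jagged and Delta-like ligands bind the receptor, ADAM proteases and then gamma-secretase cleave it, and the released intracellular domain enters the nucleus, where it joins RBPJ and Mastermind-like coactivators on target genes of the Hes and Hey families, which encode repressors of transcription. In the liver the pathway is known for its part in bile duct formation, where JAG1 and NOTCH2 are the main pair, and for liver cancers with biliary features.

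In these libraries all 4 receptor genes were higher in KO than in NC, from 1.47-fold for Notch1 to 7.23-fold for Notch3. Jag1, the most abundant ligand, overlapped between the groups. Dll1 was 4.2-fold higher from a very low level, and Hes1 was 0.688-fold its NC level. Levels are given as CPM (counts scaled by library size) for comparing 1 gene across libraries, and as TPM (scaled by gene length too) for comparing genes with each other. In a bulk sample, more transcript per cell and a larger share of cells carrying it cannot be told apart.

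Over all 12510 tested genes, 37.9% passed an adjusted p of 0.05, 19.7% as higher and 18.2% as lower in KO, and the CPM of the groups did not overlap for 69.4%. Of the 8 tested Notch genes 5 were on the higher side of that threshold, 1 was on the lower side and 2 were not past it, and 6 did not overlap. Since this contrast was used to choose the genes, nothing is read from these counts. The median log2 fold change of the 8 genes was 0.58, beside -0.004 over all tested genes, and for the same reason nothing is read from it.

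The promoters of the 4 receptor genes are shown because these genes were higher together while differing in size of change. Each is 300 bases on the gene's strand, from 250 bases before to 50 after the RefSeq start, on build GRCm38.p6. Capitals mark GGGCGG, the GC box bound by SP-family factors, or its reverse complement. The windows are chr2:26503773-26504072 (minus strand) for Notch1, chr3:98013288-98013587 (plus) for Notch2, chr17:32166841-32167140 (minus) for Notch3 and chr17:34564045-34564344 (plus) for Notch4. For Notch1 the RefSeq start is base 26503822, while the annotated gene reaches upstream to 26516663. The Notch1 window therefore lies inside the gene and does not cover that upstream end.
Notch1: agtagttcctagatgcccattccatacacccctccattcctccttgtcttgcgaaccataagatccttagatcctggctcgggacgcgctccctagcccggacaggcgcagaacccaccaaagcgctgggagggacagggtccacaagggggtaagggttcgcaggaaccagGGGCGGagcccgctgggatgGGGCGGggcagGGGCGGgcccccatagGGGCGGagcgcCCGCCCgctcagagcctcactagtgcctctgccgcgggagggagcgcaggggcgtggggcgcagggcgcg
Notch2: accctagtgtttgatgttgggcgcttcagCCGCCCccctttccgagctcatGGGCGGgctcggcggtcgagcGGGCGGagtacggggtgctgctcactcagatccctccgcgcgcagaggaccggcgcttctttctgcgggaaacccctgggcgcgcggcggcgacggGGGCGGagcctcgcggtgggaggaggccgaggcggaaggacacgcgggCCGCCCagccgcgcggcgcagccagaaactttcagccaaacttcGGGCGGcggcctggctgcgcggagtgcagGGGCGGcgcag
Notch3: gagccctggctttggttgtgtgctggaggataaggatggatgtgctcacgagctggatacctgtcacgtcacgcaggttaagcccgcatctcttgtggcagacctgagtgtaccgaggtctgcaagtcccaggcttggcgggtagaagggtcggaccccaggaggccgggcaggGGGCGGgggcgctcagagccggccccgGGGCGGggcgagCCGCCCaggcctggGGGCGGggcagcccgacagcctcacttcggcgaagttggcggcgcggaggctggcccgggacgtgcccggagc
Notch4: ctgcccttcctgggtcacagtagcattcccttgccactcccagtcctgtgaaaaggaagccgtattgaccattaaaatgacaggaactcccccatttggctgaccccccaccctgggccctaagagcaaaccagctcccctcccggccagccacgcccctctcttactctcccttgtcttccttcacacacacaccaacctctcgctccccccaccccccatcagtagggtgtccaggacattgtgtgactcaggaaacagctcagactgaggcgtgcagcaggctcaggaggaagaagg

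The first 3 windows are CpG-rich, with 23 CpG in Notch1, 41 in Notch2 and 25 in Notch3, while Notch4 has 5. GGGCGG, counted on both strands, occurs 5 times in Notch1, 7 times in Notch2, 4 times in Notch3 and 0 times in Notch4, and 35.7% of the 32851 mouse promoter windows of this length hold it. CAGAC is the core recognised by SMAD proteins downstream of activin receptors. It occurs 2 times in Notch3 and 1 time in Notch4 and is absent from the Notch1 and Notch2 windows. Among the ligands it occurs 1 time in Jag1, whose levels overlapped between the groups, and 3 times in Dll4, which was not tested. The Dll1 windows hold it 1 and 2 times, and that of Jag2 does not. Of all windows, 49.6% hold it. TGGGAA, the RBPJ core, is in none of the 9 windows found for 8 of the 10 genes (Dll1 has 2 starts), beside 25.6% of all windows. CACNAG, bound by Hes proteins, occurs 3 times in Notch1, where a pair of the matches overlap, 1 time in Notch2, 2 times in Notch3 and 0 times in Notch4, beside 42.5% of all windows. None of the CAGAC matches overlaps a GGGCGG match in these windows. These are letter matches only.

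Notch3 encodes a receptor best known from vascular smooth muscle and pericytes and lies at chr17:32120820-32166852 (minus strand; gene coordinates here are from GENCODE M21 on GRCm38). It had 67 and 66 counts for the NC libraries against 421 and 603 for the KO libraries. On the CPM scale these were 5.89, 4.77, 32.0 and 44.6, or 5.33 ± 0.797 in NC and 38.3 ± 8.97 in KO (SD, n = 2). Both KO libraries lay far above both NC libraries, and the KO libraries also differed from each other more than the NC libraries did. The log2 fold change was 2.85 (SE 0.18, 95% interval 2.50 to 3.21), which placed Notch3 at rank 48 of the 12510 tested genes from the highest down. The gene has 1 annotated transcript, so its length does not vary between libraries, and the ratio of mean TPM, 7.49, was close to the CPM ratio of 7.19. An antisense gene, Gm17276, overlaps 488 of its 8089 exonic bases, and it had 0, 0, 3 and 1 counts.

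Notch2, the receptor of bile duct development, lies at chr3:98013527-98150361 (plus strand). It was the most abundant receptor by TPM in every library. Its CPM was 88.1 and 100.4 for the NC libraries against 146.1 and 139.6 for the KO libraries. The groups did not overlap. Its log2 fold change of 0.60 (SE 0.10, 0.41 to 0.78) corresponds to 1.51-fold, and TPM gave nearly the same, with 10.1 ± 1.22 in NC and 15.8 ± 1.03 in KO (SD, n = 2).

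Notch1, at chr2:26457903-26516663 (minus strand), is the receptor mutated in T-cell leukaemia. Its CPM was 17.4 and 18.7 for the NC libraries against 27.0 and 26.2 for the KO libraries. The replicates lay close together in each group, and the log2 fold change was 0.56 (SE 0.13, 0.30 to 0.81). On the TPM scale the same gene read 2.21, 4.45, 7.36 and 5.03, so that the NC replicates differed more from each other than NC 2 did from KO 2.

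Notch4, a receptor known mainly from endothelium, lies at chr17:34564268-34588503 (plus strand). It had 40, 38, 109 and 107 counts, or 3.52, 2.74, 8.27 and 7.92 CPM. The KO libraries were above the NC libraries, and the log2 fold change was 1.38 (SE 0.24, 0.91 to 1.85). On TPM the gap was smaller, with 1.06 and 1.15 in NC against 1.93 and 1.39 in KO, or 0.33 as a difference on log2(TPM + 1).

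**Figure D1:**
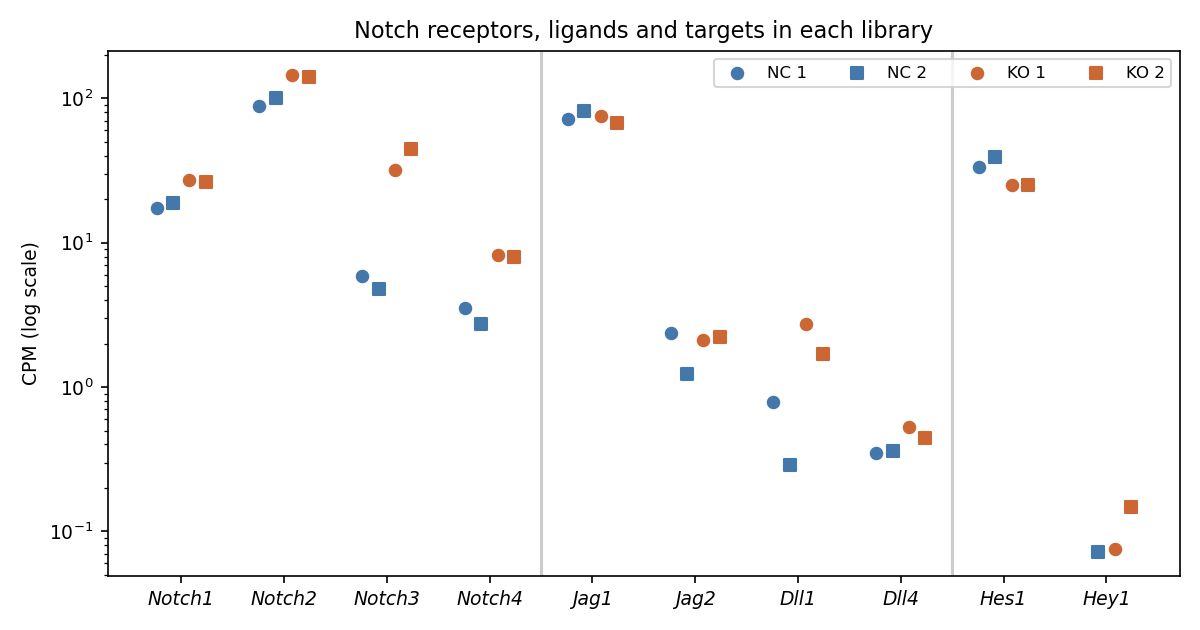
CPM (log axis) of each of the 10 genes, with receptors, ligands and targets separated by grey lines; circles are replicate 1 and squares replicate 2, blue for NC and orange for KO. All 4 receptors, Dll1 and Dll4 (4 to 7 counts) lie higher in both KO libraries and Hes1 lower, while Jag1 and Jag2 overlap. Hey1 had 0 to 2 counts, and its 0 in NC 1 is not drawn.

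Which receptor dominated was read from the share of each gene in the summed TPM of the 4 receptors. Notch2 held 69.5% and 63.6% for the NC libraries against 54.1% and 54.2% for the KO libraries, that is 66.5% ± 4.14 in NC and 54.2% ± 0.0423 in KO (SD, n = 2). Notch3 held 6.00%, 3.94%, 15.5% and 22.8% of the sum in the same order. Notch2 was thus first in all 4 libraries, with a lower share in both KO libraries, and Notch3 had the larger shares there. The ratio of Notch2 to Notch3 TPM was 11.6 and 16.1 in NC and 3.49 and 2.38 in KO. The summed receptor TPM itself was 13.3 and 17.3 in NC against 30.6 and 27.9 in KO.

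The places behind Notch2 differed with the length used and, by TPM, between the KO libraries. By TPM, Notch1 held 16.6%, 25.8%, 24.1% and 18.0%, and Notch3 was below it in both NC libraries and in KO 1 but above it in KO 2, the TPM ratio of Notch1 to Notch3 being 1.55 in KO 1 and 0.792 in KO 2. On group means Notch1 was in the second place (21.2% ± 6.51 in NC and 21.1% ± 4.26 in KO) and Notch3 was in the fourth place in NC and the third in KO (4.97% ± 1.46 and 19.1% ± 5.15, SD, n = 2), but without KO 1 Notch3 takes the second place in KO. The order of Notch1 and Notch3 in KO is therefore not settled by TPM. By counts divided by the fixed annotated exonic length, Notch3 moved from the third place (6.00%) to the second (22.6%), and Notch1 from the second (11.5%) to the third (8.97%). Notch2 stayed first on this scale too, at 79.0% in NC and 63.6% in KO. Notch4 held between 4.99% and 7.95% by TPM, and between 2.94% and 5.02% by fixed length.

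**Figure D2:**
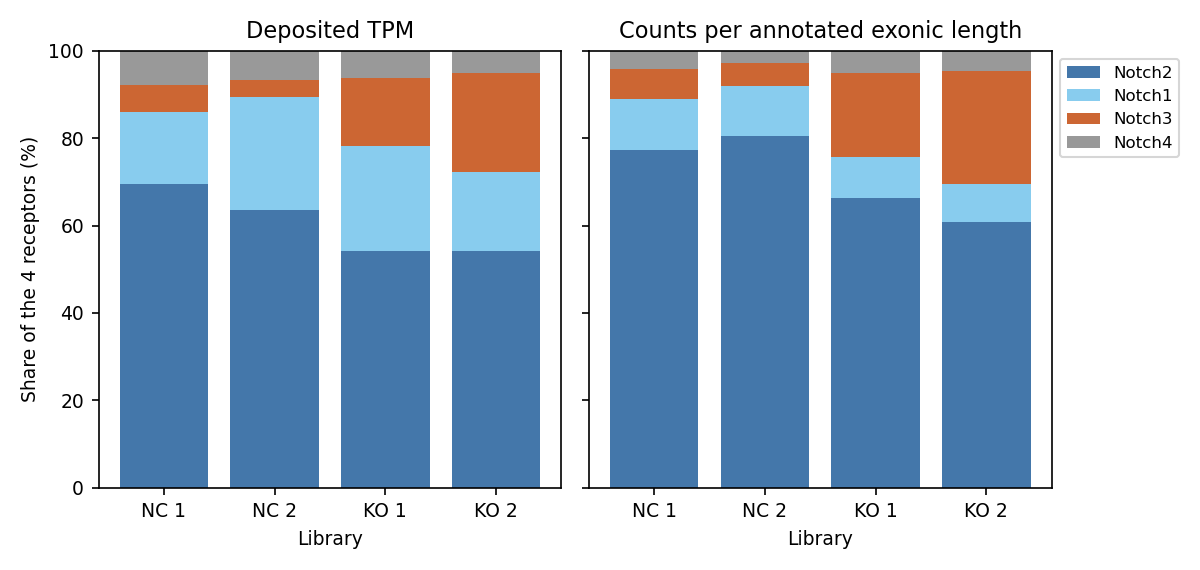
Share of each receptor gene (%, bars stacked to 100) in the summed level of the 4 receptors in each library, from the deposited TPM (left) and from counts divided by annotated exonic length (right). Notch2 is the largest segment in every bar, and the Notch3 segment is larger in KO 1 and KO 2 than in NC 1 and NC 2 on both scales.

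The scales enter different lengths. TPM uses a length for each gene and library that the authors' program averages over the gene's transcripts by their estimated abundance, while the fixed scale uses all annotated exonic bases, which for Notch1 are 14232. For Notch1 this length was 8626 and 4930 bases for the NC libraries against 4486 and 6022 for the KO libraries, while the annotated transcripts number 11, the longest (9488 bases, coding) being followed by a retained-intron transcript of 4132 bases. A length alone bounds the share of the longest transcript, from 83.9% to 90.8% of Notch1 molecules in NC 1 and from 6.60% to 46.4% in KO 1. These bounds do not overlap, so the estimated transcript mix of Notch1 differed between these libraries, but it also differed within NC, where NC 2 gave 14.9% to 51.2%. The TPM of the longest Notch1 transcript lay between 0.486 and 3.41 in KO 1 and between 1.77 and 3.16 in KO 2. Notch3 TPM, at 4.74 and 6.35, was above those upper bounds in both KO libraries.

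Notch4 had a longer assigned length in both KO libraries, with 3773 and 2895 bases in NC and 5196 and 6581 in KO, over 12 annotated transcripts. With 38 to 109 counts spread over that many transcripts, the split is loosely determined. Notch2 was steady, its 10500-base coding transcript making up 98.4% to 100% of molecules in all 4 libraries.

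**Figure D3:**
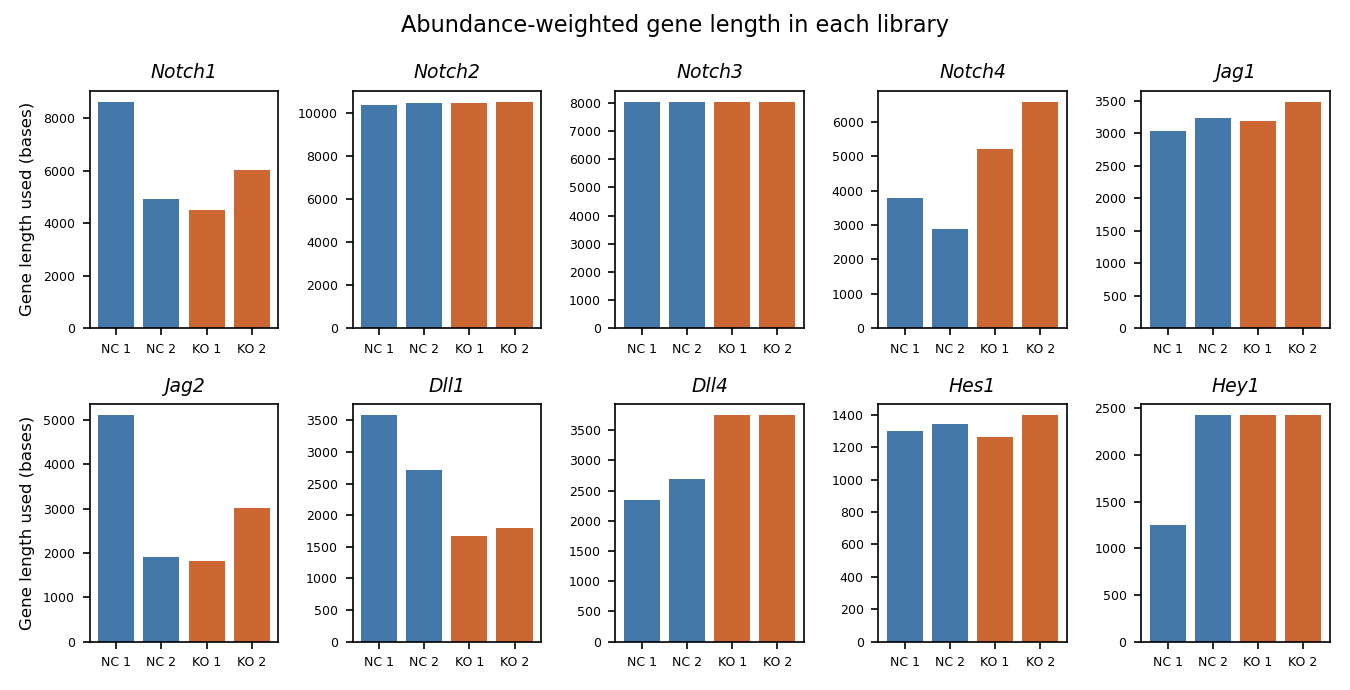
Abundance-weighted length in bases that the authors' program assigned to each of the 10 genes in each library (bars from 0; blue NC, orange KO; each panel has its own axis). The bars are level for Notch2 and Notch3, unequal between replicates for Notch1 and Jag2, shorter in KO for Dll1 and longer in KO for Notch4; the NC 1 bar of Hey1 stands for a gene with 0 counts.

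Among the ligands, Jag1, at chr2:137081456-137116644 (minus strand), made up nearly all of the transcript. Its CPM was 72.1 and 82.2 for the NC libraries against 75.4 and 67.4 for the KO libraries. The groups overlapped, and the log2 fold change was -0.12 (SE 0.10) with a 95% interval of -0.31 to 0.08. Jag1 held 96.7% and 96.5% of the ligand TPM in NC and 88.2% and 91.2% in KO. The 5612-base coding transcript took 37.9%, 42.5%, 41.7% and 48.6% of its molecules, the rest went to a retained-intron transcript of 1463 bases, and the TPM of the coding transcript was 10.4, 13.1, 12.3 and 11.2.

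Jag2, a second Jagged ligand at chr12:112907819-112929776 (minus strand), had only 27, 17, 28 and 30 counts. Its log2 fold change was 0.30 (SE 0.38) with an interval of -0.46 to 1.05, and the sign turned to -0.13 without NC 2. Its TPM values of 0.52, 0.83, 1.57 and 0.89 did not overlap between the groups while its CPM values of 2.37, 1.23, 2.13 and 2.22 did. Its assigned length was 5106, 1900, 1810 and 3005 bases in the same order.

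Dll1, a Delta-like ligand at chr17:15367354-15376872 (minus strand), had 9 and 4 counts for the NC libraries against 35.6 and 23 for the KO libraries. Both KO libraries were above both NC libraries at a low level throughout, with 0.792, 0.289, 2.73 and 1.70 CPM. The log2 fold change was 2.07 (SE 0.54, 1.02 to 3.12). It ran from 1.47 to 2.89 when 1 library was left out, and without KO 1 it was 1.69. Dll1 was chosen on this contrast and entered the fit only through the KO libraries, so neither the interval nor this range is a test. On TPM the ratio was 8.95, beside 4.10 on CPM. In KO the assigned length was 1668 and 1803 bases, shorter than the 3581 and 2712 in NC, and the longest transcript (3581 bases, coding) accounted for 31.3% to 35.7% of molecules in KO 1 and 36.1% to 40.3% in KO 2. TPM of that transcript was 0.25 in NC 1, at most 0.0920 in NC 2, at least 0.685 in KO 1 and at least 0.437 in KO 2. With 4 to 35.6 counts spread over 6 annotated transcripts, this split is loosely determined, and the bounds leave out that error. An antisense gene, A930024N18Rik, overlaps Dll1 and had 1, 0, 4.44 and 3 counts.

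Dll4, the Delta-like ligand of endothelial tip cells, lies at chr2:119325784-119335962 (plus strand) and had 4, 5, 7 and 6 counts, too few to enter the fit. Its TPM lay between 0.14 and 0.18 in all 4 libraries, and the groups overlapped on that scale. Its CPM was 0.352 and 0.361 in NC against 0.531 and 0.444 in KO, without overlap but at these few counts. The summed ligand TPM was 28.4 and 31.9 in NC against 33.5 and 25.3 in KO. The receptor sum therefore did not overlap between the groups, while the ligand sum did. These sums are mostly Notch2 and Jag1, and the genes were chosen on this contrast. Of all tested genes 69.4% did not overlap by CPM, so nothing is read from this difference.

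Hes1, at chr16:30064384-30067796 (plus strand), encodes the best known repressor induced by Notch, and it also responds to other signals. Its CPM was 33.4 and 39.4 for the NC libraries against 25.2 and 25.0 for the KO libraries. Both KO libraries were below both NC libraries, opposite in direction to the 4 receptors. The log2 fold change was -0.54 (SE 0.12, -0.77 to -0.31), and TPM gave 33.6 and 40.0 in NC against 28.6 and 24.1 in KO.

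Hey1, at chr3:8663359-8667256 (minus strand), encodes a related repressor and was at the edge of detection, with 0, 1, 1 and 2 counts. The 0 in NC 1 allows a level of up to 0.264 CPM (3 counts, counting error only), and no fold change was formed. The related targets Hes2, Hes5, Hey2 and Nrarp had no count in any library, and Heyl had 1 count in KO 2 alone. Hes3 had 0, 1, 0 and 1 counts. Hes7 had 2, 1, 9 and 6 counts, higher in both KO libraries but under the filter. Among the Hes and Hey genes, Hes1 and Hes6 were the ones with enough counts for the fit.

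The rest of the pathway was read from 8 lists of 69 genes by role, none of them among the 10 genes above. Of these, 53 were tested, 15 rose and 10 fell past an adjusted p of 0.05, and 28 did not pass. The called share was 47.2%, beside 37.9% over all tested genes, and the median log2 fold change was 0.11, beside -0.004. These lists and the marker lists below were drawn up with earlier results of these data known. Nothing is therefore read from this share or median, or from the counts by role below. The adjusted p of the listed genes carry the same limit. Over all tested genes 19.7% were called as higher and 18.2% as lower, so calls in both directions are common to the tested genes as a whole. Of the 25 calls, 14 held under all 8 alternatives run on counts; 11 were lost when 1 of the 4 libraries was left out, and those genes are named as such below; 8 of these 11 were also lost with DESeq2 (Rfng, Lfng, Aph1b, Maml3, Kat2b, Maml1, Tle4 and Cir1). On log2(TPM + 1), 7 of the 25 passed (Egfl7, Mfng, Neurl1a, Psenen, Tle2, Numbl and Cdkn1a). Mfng is counted in the 25, the 14 and the 7, but it entered the fit only through the KO libraries, so nothing is read from its calls.

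Genes that modify and process the receptors included 3 that rose and 1 that fell among 5 tested. Mfng, 1 of the 3 Fringe glycosyltransferases that tune which ligands a receptor answers to, counted 5 and 7 reads in the NC libraries against 31 and 40 in the KO libraries, a log2 difference of 2.46 (SE 0.51). This gene passed the filter on low counts only through the KO libraries, so whether it was tested depended on its being high there, and no p is given for it, though it is counted among the genes that rose. Of its relatives, Lfng rose by 0.57 (SE 0.21, edgeR adjusted p = 0.0303) and Rfng by 0.39 (SE 0.12, edgeR adjusted p = 0.00855). Leaving out KO 1 took Lfng to 0.37, and leaving out NC 2 took Rfng to 0.25, no longer past the threshold in both cases; Lfng was also lost without NC 1 or NC 2 and Rfng without KO 2. Furin, the convertase that cuts the receptor precursor, fell by 0.36 on the log2 scale (SE 0.09, edgeR adjusted p = 0.00258). Pofut1, which adds the fucose that Fringe extends, did not pass (edgeR adjusted p = 0.868).

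The other ligand-like genes were at low levels, and 2 of the 7 were tested. Egfl7, which encodes a secreted protein reported to bind Notch, rose from 38 and 53 counts to 123 and 108 (log2 fold change 1.26, SE 0.23, edgeR adjusted p = 6.4e-05); its exons overlap 64 bases of Agpat2 on the opposite strand. Dlk2 did not pass (edgeR adjusted p = 0.972), and the other 5 listed genes were under the filter. Of the 4 ubiquitin ligases that drive ligand endocytosis in the sending cell, Mib2 rose by 0.96 (SE 0.17, edgeR adjusted p = 5.37e-05) and Neurl1a by 0.42 (SE 0.10, edgeR adjusted p = 0.00146). Mib1 and Neurl1b did not pass.

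Of 8 tested receptor cleavage genes 2 rose and 3 fell, beside 19.7% higher and 18.2% lower over all tested genes. Adam17, a surface protease, rose by 0.47 (SE 0.12, edgeR adjusted p = 0.00228), while Adam10, the main ligand-dependent Notch sheddase, had 0.18 (SE 0.10, edgeR adjusted p = 0.164). Of the gamma-secretase subunits, Psenen fell by 0.56 (SE 0.10, edgeR adjusted p = 6.68e-05), Aph1a by 0.30 and Ncstn by 0.26, and Psen2, which encodes a catalytic subunit, did not pass (edgeR adjusted p = 0.900). Aph1b rose by 0.85 (SE 0.30, edgeR adjusted p = 0.0242) at 26 to 61.1 counts, but reads may be split with its near-identical copy Aph1c, so both are uncertain. The calls for Aph1a (without NC 2), Ncstn (without NC 2 or KO 1) and Aph1b (without NC 1, NC 2 or KO 2) were lost. Psenen, Adam17 and Ncstn each share exonic bases with a gene on the opposite strand (U2af1l4, Iah1 and Copa).

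In the nuclear activation complex, Rbpj, the DNA-binding partner of the receptor's intracellular domain, had a log2 fold change of -0.19 (SE 0.10, edgeR adjusted p = 0.14), with 221.3, 234.2, 174.5 and 224.1 CPM. The coactivators Maml3 and Maml1 rose by 0.46 and 0.26 (edgeR adjusted p = 0.00488 and 0.0340), and the acetyltransferases Kat2a and Kat2b fell by 0.39 and 0.36 (edgeR adjusted p = 0.00166 and 0.0142). Maml1 was at 0.15 without NC 1, and Maml1, Maml3 and Kat2b lost their calls without NC 1 (Maml1 and Kat2b also without KO 1). Among 12 repression genes 3 rose and 2 fell. Tle2, a Groucho corepressor, rose by 1.0 (SE 0.13, edgeR adjusted p = 1.34e-06), and Ctbp1, a corepressor of another family, fell by 0.53 (SE 0.10, edgeR adjusted p = 0.000284). Calls for Tle4, Cir1 and Aes were lost on leaving out 1 library: Tle4 without NC 1, KO 1 or KO 2, Cir1 without NC 2, KO 1 or KO 2, and Aes without NC 1 or KO 2.

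Of 7 tested genes of receptor turnover, Numbl was the 1 that passed. It encodes a relative of the Notch inhibitor NUMB and rose by 0.94 (SE 0.12, edgeR adjusted p = 7.01e-07), from 20.2 and 18.8 CPM to 36.7 and 38.1. Numb itself did not pass (edgeR adjusted p = 0.352).

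Of 6 tested genes among the other reported Notch targets, 1 rose and 2 fell past the threshold. Sox9, a biliary and progenitor transcription factor, fell by 0.52 (SE 0.10, edgeR adjusted p = 0.000313), with 25.9 and 32.2 TPM in NC and 23.7 and 18.5 in KO. Ccnd1, the cyclin D1 gene, fell by 0.43 on counts (SE 0.10, edgeR adjusted p = 0.000844). Its TPM overlapped between the groups, with 305.1 and 349.4 in NC and 328.6 and 229.6 in KO. LTO1 on the opposite strand overlaps 1100 of the 4709 exonic bases of Ccnd1. Cdkn1a, which encodes the cell cycle inhibitor p21, rose by 0.44 (SE 0.09, edgeR adjusted p = 0.000472). Spp1, Myc and Hes6 did not pass. These genes answer to many pathways besides Notch.

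**Figure D4:**
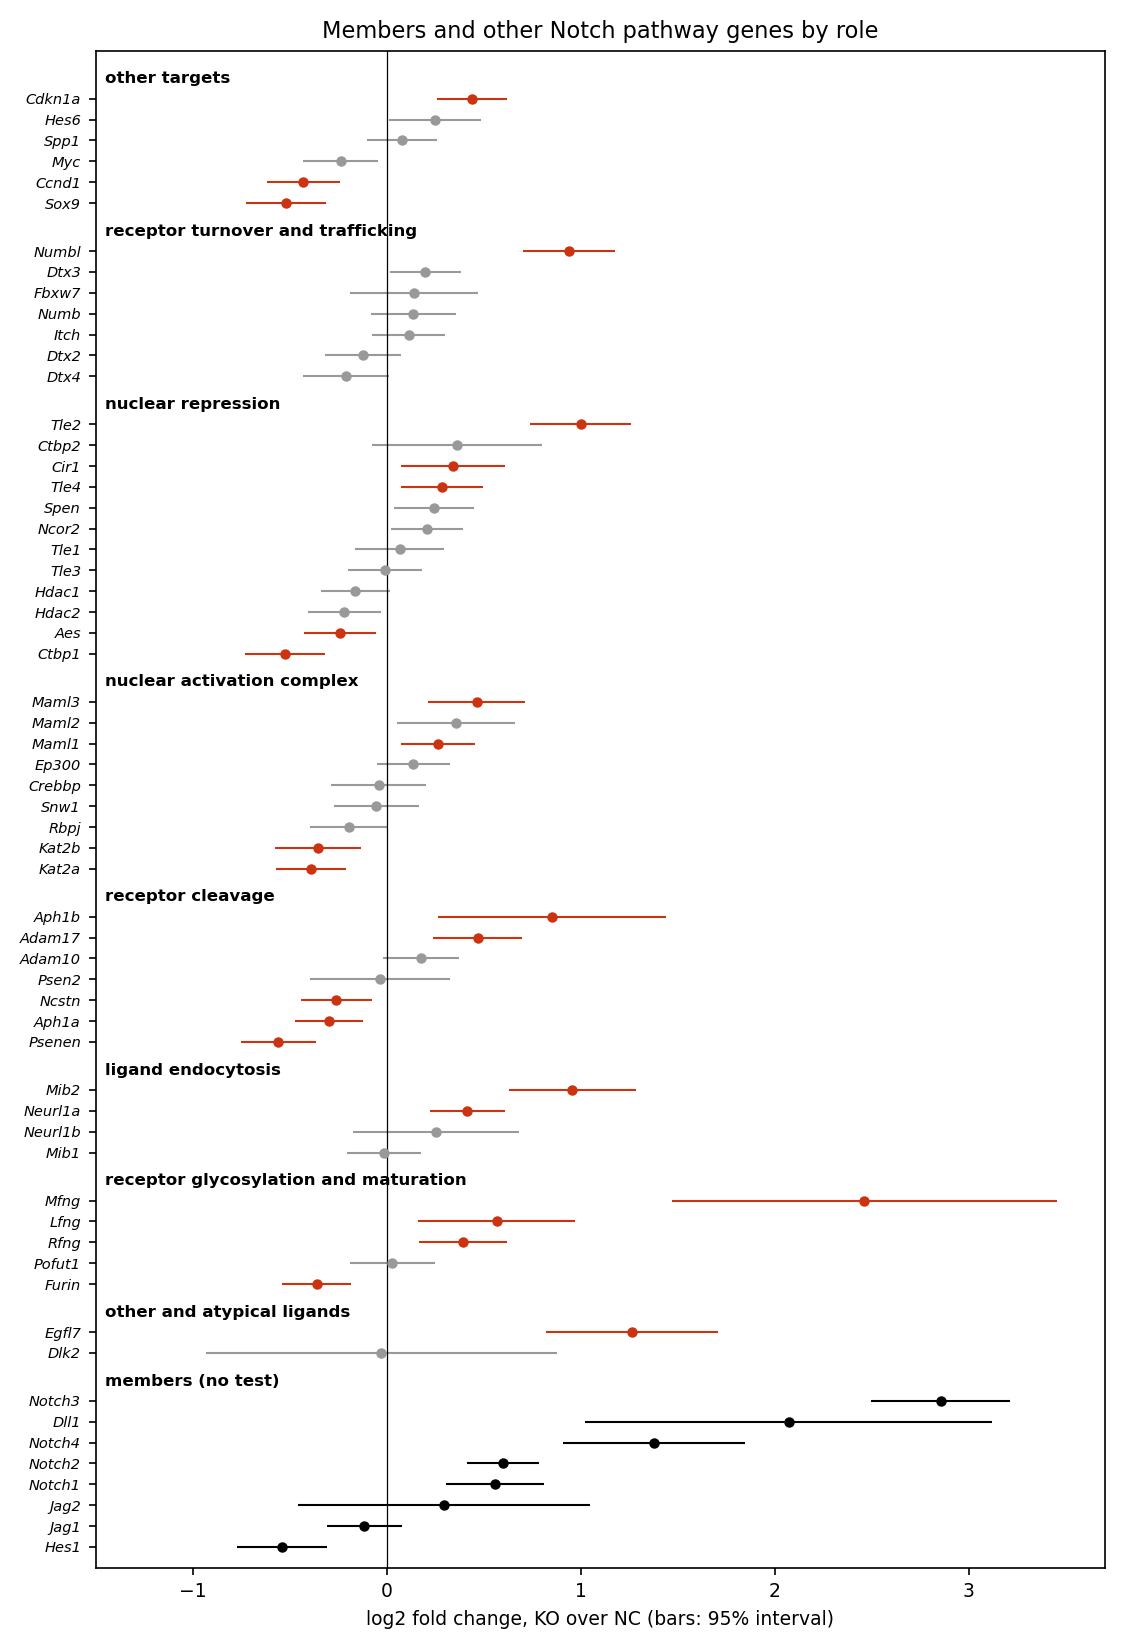
Log2 fold change, KO over NC, with 95% intervals (bars), of the 8 tested members in black and of other pathway genes by role, red where the edgeR adjusted p was under 0.05 and grey where not. Notch3, at 2.85, lies farthest to the right, and Psenen, at -0.56, is the lowest. Mfng, at 2.46 the highest of the other genes, passed the filter only through KO, as did Dll1.

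Markers of cells known for individual receptors were read beside these results. Endothelial markers were near 0, with Cdh5, Tek, Emcn and Erg at 0 counts in all libraries and a summed level of 7 genes between 0.304 and 1.06 CPM. Of 7 mural and stellate cell markers, Lrat was at 0 and Pdgfrb had 0 to 2 counts. Des rose by 1.28 (SE 0.21, edgeR adjusted p = 2.76e-05), and with it the list's summed CPM, from 5.72 and 4.84 in NC to 11.8 and 11.7 in KO. The sum of 7 leukocyte markers was 24.2 and 27.9 CPM in NC and 51.6 and 63.5 in KO; nearly all of it was Cd68, which rose by 1.20 (SE 0.12, edgeR adjusted p = 1.34e-08), while Cd3e was at 0. Des and Cd68 thus moved in the same direction as Notch3, and their part in the Notch results was not tested.

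For the cell line itself, the hepatocyte genes Alb and Trf were present and rose by 0.41 and 0.53 (edgeR adjusted p = 0.00224 and 4.31e-05). Afp, the fetal liver and hepatoma marker, fell by 1.21, Hnf4a by 0.99 and Foxa2 by 0.89 (edgeR adjusted p = 1.01e-10, 4.27e-09 and 3.06e-08). Ttr was at 0 or 1 count in each library. The biliary keratin genes Krt7 and Krt19 rose by 0.77 and 0.73 and Epcam by 0.58 (edgeR adjusted p = 4.21e-07, 3.2e-06 and 0.00674), while Tff2 of the same list fell by 0.32 (edgeR adjusted p = 0.00739) and Sox9 fell as given above. Hepatocyte and biliary markers thus each moved in both directions, as did the tested genes as a whole. Their part in the Notch results was not tested.

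The genes whose pattern was most like that of Notch3 over the 4 libraries, by the distance between centred log2 CPM values, were Agap2, Col6a4, Ace, Cyp46a1 and Adgrb3. Agap2 was nearest, at a distance of 0.160, with 11, 10, 85 and 108 counts. Next came Col6a4 at 0.204 with 2, 2, 19 and 31 counts. Ace, Cyp46a1 and Adgrb3 had at most 1 count in an NC library and 10 to 16 in a KO library. All 5 passed the filter on low counts only through the KO libraries. With 0 to 2 counts in each NC library, the last 4 have NC values set largely by the prior count of 2 added before taking logs, so their nearness to Notch3 depends on that choice.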

How the data were processed

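RNA was isolated with TRIzol, DNase-treated and made into libraries with a directional kit, per the labels' protocols. FastQC, STAR, RSEM and DESeq2 are named without versions or roles in the submitters' processing notes, which also give the mouse builds GRCm38 and mm10; annotation release and strand setting were not given in the sources used here. The deposited expected counts are the authors' unnormalised estimates per gene, per the file headers, with reads of several transcripts or near-identical genes shared out by the program. The deposited TPM values are the authors' length-scaled levels, per the file headers, and use a gene length that differs between libraries. In all, 54838 genes are listed per library, of which 34259 had no count and 8069 fell under the filter.

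The Notch genes, the 8 pathway lists and the 5 marker lists were chosen with earlier results of these data known. Expected counts were rounded (totals changed by at most 0.000188%), filtered with filterByExpr and scaled by TMM (factors 0.981 to 1.02). One quasi-likelihood fit in edgeR 4.0.16 (R 4.3.3), group as sole term, covered all 12510 tested genes, with Benjamini-Hochberg adjustment over them and a threshold of 0.05. Each group has 2 libraries, so the spread is shared across genes (prior df 25.8). CPM uses the TMM-scaled total, and the standard errors come from the fitted weights and moderated dispersion. The fitting code was tested on simulated data. Without molecular identifiers, PCR copies count as reads. The floor of 3 counts covers counting error only, while the intervals also hold the spread between these libraries, which may be technical.

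Genes named are the 10 Notch genes, Acvr2a, up to 5 of lowest p per list past the threshold, 5 genes nearest Notch3 (log2 CPM, prior count 2) and genes sharing their exons; others are named to complete a list and were chosen after their values were seen. Transcript bounds take the annotated lengths in GENCODE M21: the lower assigns all remaining molecules to the second longest transcript, the upper to the shortest. Alternatives were RLE scaling, no filter, DESeq2 1.42.0, limma 3.58.1 on log2(TPM + 1) or log2(TPM + 0.1), a replicate block, other length scalings of the shares, and leaving out each library. Promoter windows are from RefSeq (GRCm38.p6), matched for 8 of the 10 genes. FPKM columns were not used here. Some genes of the lists enter the counts but are not reported here by name.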

Additional observations from a re-analysis of the deposited data

How the results depend on the processing

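Over 11 alternatives and 34 named genes, 260 of 374 fold changes kept their direction and side of the threshold, 113 kept their direction but were no longer past it, 0 newly passed (Jag1, Jag2 and Acvr2a were the ones that could, the others having been past it to begin with) and 1 reversed: Jag2, at -0.13 without NC 2, with a range of -0.13 to 0.81 over the fits that leave out 1 library. The 34 include the 8 tested Notch genes, which were chosen on this contrast, and Mfng, which like Dll1 entered the fit only through KO. For these genes the counts describe how the values moved between settings and are not a test. Against 4741 genes called in all and 25 in the pathway, DESeq2 called 2843 in all and 17 in the pathway. Limma on log2(TPM + 1) called 1888 and 7, on log2(TPM + 0.1) 1096 and 5, and on log2(TPM + 1) without a filter 0 and 0, where 4730 genes and 24 pathway genes were under an unadjusted p of 0.05. The causes were not tested. Calls on TPM were mostly higher in KO, 1391 against 497 and 899 against 197 for the filtered fits, beside 2459 against 2282 on counts. Leaving out 1 library gave 3507 to 4488 calls in all and 19 to 26 in the pathway.

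The Notch2 share of 66.5% in NC and 54.2% in KO was 78.0% and 66.2% on counts without length scaling and 79.0% and 63.6% with annotated exonic length; it was lower in KO than in NC on all 3 scales. The libraries share replicate numbers, but nothing says that a number marks a shared culture or day, and deviations of NC 1 and KO 1 from their group means correlated at -0.0116. With a replicate block 5006 genes were called in all and 26 in the pathway; of the named genes Aes was not called there, and no other named call changed. Depth limits Jag2, Dll1, Dll4 and Hey1, which had 0 to 35.6 counts in a library, and with 2 libraries per group the spread of any single gene is poorly known.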
